A study of Homo sapiens with 6 samples.

Results

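The genes described here encode 9 proteins that bring cholesterol into the cell and move it between compartments: SCARB1, VLDLR, LIPA, NPC1, NPC2, STARD3, STARD4, TSPO and NR1H3. They were chosen by name for their place in this route, though with earlier results of these data known. All 9 were among the 57341 gene names of the count table. Their mRNA was measured by RNA-seq in H295R, a human adrenocortical carcinoma cell line, and in H295R-PM-Ptc+, a subpopulation obtained from it by cell sorting for cell-surface Ptch1, a Hedgehog receptor, followed by amplification in culture. Both were grown in the same medium with no treatment named in the labels, and each group holds 3 libraries. H295R-PM-Ptc+ is thus a sorted and expanded population of 1 cell line, and no label says that the replicates came from separate cultures, so the p-values below measure the spread between libraries, which may be technical.

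The libraries held 23264403 to 25813247 counts on named genes, and 16710 genes, the 9 among them, passed the filter on low counts and were tested. Levels are given as CPM, counts scaled to libraries of 1 common size after TMM normalization, as mean ± SD of 3 libraries. Changes are log2 fold changes from edgeR's quasi-likelihood test with its standard error (SE), and an adjusted p under 0.05 over all tested genes was taken as a call. PTCH1, the gene of the protein used for sorting, had 441, 559 and 579 counts in the libraries labelled H295R and 248, 326 and 319 in those labelled H295R-PM-Ptc+. It was therefore lower in the libraries that carry the name of the sorted cells, with a log2 fold change of -0.81 ± 0.147 (SE, adjusted p = 0.0207). The groups did not overlap in CPM, and the ratio within same-numbered replicates was 0.526, 0.596 and 0.588. That call was kept in 10 of 13 alternative fits, with the replicate number as a further term among them (adjusted p = 1.72e-06). It was lost without H295R replicate 2 (adjusted p = 0.0799), H295R replicate 3 (0.0921) or H295R-PM-Ptc+ replicate 2 (0.0618). In the study's own table of normalised values the same libraries carry the group names the other way round. Every direction below is that of the libraries as labelled in the deposited table, and each would turn if those labels were exchanged. The adrenocortical identity of the cells was visible in both groups, since all 8 cortical markers listed, NR5A1 and the steroidogenic enzymes CYP11A1 and CYP17A1 among them, were detected and tested.

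Adrenocortical cells use cholesterol as the substrate of all steroid hormones. It enters as lipoprotein cholesteryl ester, either selectively through scavenger receptor class B type 1 (SCARB1) or by endocytosis of whole particles through lipoprotein receptors such as VLDLR. Endocytosed ester is cleaved by lysosomal acid lipase (LIPA), and the free sterol leaves the late endosome through NPC2 and NPC1, with STARD3 tethering that membrane to the endoplasmic reticulum. STARD4 carries sterol through the cytosol, TSPO sits in the outer mitochondrial membrane, close to where steroid synthesis begins, and NR1H3 (LXR-alpha) is a nuclear receptor that senses oxysterols.

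Of these genes 1 of 9 was called in the comparison of the labelled groups, SCARB1, with the higher level under the H295R-PM-Ptc+ label. Of all tested genes 3.73% were called, 404 of them higher and 220 lower. The median log2 fold change of the 9 was 0.04, against 9.4e-04 over all tested genes, and 5 of the 9 had a positive sign. Same-numbered replicates of the groups deviated together, most clearly replicate 1, so the fit was repeated with the replicate number as a block. With the block 4 of 9 were called, SCARB1 and VLDLR higher and LIPA and NPC2 lower, where 22.5% of all tested genes were called. The CPM of the groups did not overlap for 3 of 9 (SCARB1, VLDLR and LIPA), against 23.5% of all tested genes. In bulk RNA, a change in the share of cells that express a gene and a change in RNA per cell cannot be told apart.

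Compared per length of exon, the genes spanned a wide range of levels within the same cells. SCARB1 was the highest, with a mean of 134 CPM per kb over the 6 libraries, at the percentile 98.6 of all tested genes. NPC2 followed at 28.0 and STARD4 at 22.0 CPM per kb, then LIPA at 11.6, STARD3 at 11.4, NPC1 at 8.93 and VLDLR at 5.08. TSPO, at 1.24 CPM per kb, and NR1H3, at 0.508, were the lowest, at the percentiles 27.0 and 14.1. Each gene of this order lay above the next in 6 of 6 libraries, except that LIPA lay above STARD3 in 3 of 6. Those were the 3 libraries labelled H295R (12.04 to 13.48 CPM per kb for LIPA), while in the 3 labelled H295R-PM-Ptc+ LIPA (10.02 to 10.96) lay below STARD3, a turn that was not tested. SCARB1 alone held 62.4% to 65.0% of the counts of the 9 genes in the libraries labelled H295R and 72.5% to 74.5% in those labelled H295R-PM-Ptc+.

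**Figure D1:**
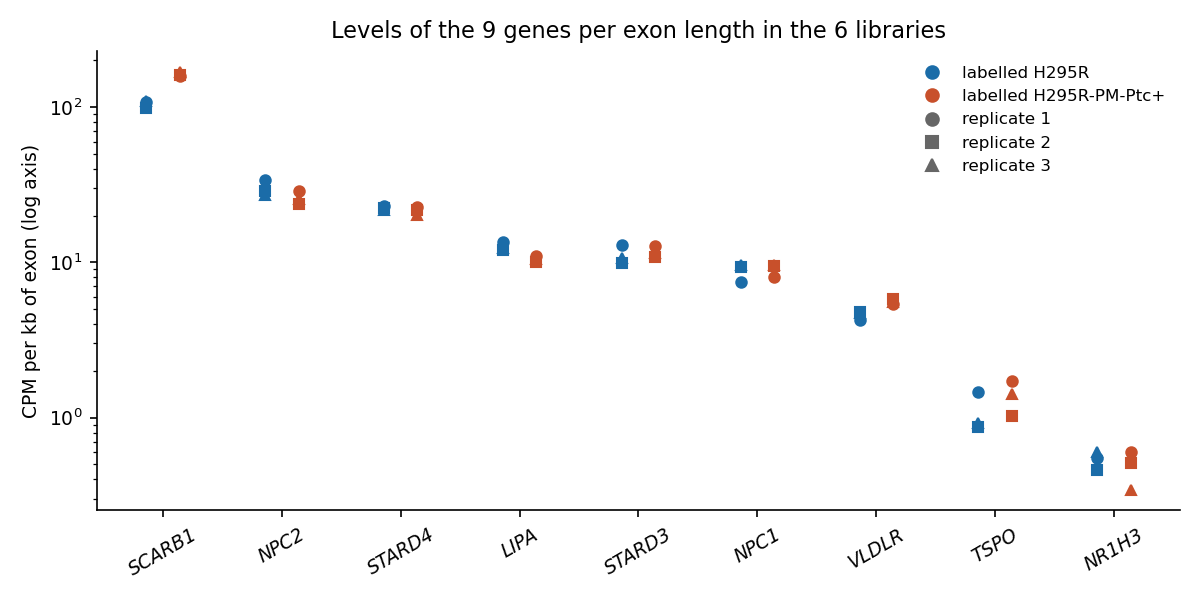
Level of each of the 9 genes in CPM per kb of exon (log axis) in the 6 libraries, with the label of the library as colour and the replicate number as symbol. SCARB1 (mean 134 CPM per kb) stands above all the others and NR1H3 (0.508) below them, and for most genes the groups lie close to each other.

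SCARB1, the receptor for selective uptake of cholesteryl ester from high-density lipoprotein, is a route of sterol supply on which the adrenal cortex relies strongly. The gene lies on the minus strand of chr12:124776856-124882668 (GRCh38/hg38, positions of the deposited annotation). It had 19974, 19363 and 21044 counts in the libraries labelled H295R and 31275, 31190 and 30353 in those labelled H295R-PM-Ptc+. The 3 libraries of the second group were all higher than the 3 of the first, and the replicates of each lay close together, at 817 ± 47.6 CPM and 1263 ± 44.4 CPM (SD, n = 3). On the log2 scale the difference was 0.63 ± 0.0803 (SE, adjusted p = 0.00345), a fold of 1.55 with a 95% interval of 1.36 to 1.75. SCARB1 ranked 130 of 16710 by p-value. Pair by pair, the ratio of CPM was 1.46, 1.65 and 1.54 for replicates 1, 2 and 3. The call was kept in 13 of 13 alternative fits, with log2 fold changes of 0.58 to 0.67 and adjusted p-values of 3.89e-10 to 0.0276. The 50 tested genes nearest to it on the chromosome had a median log2 fold change of -0.02.

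VLDLR, a lipoprotein receptor that binds apolipoprotein E-rich particles, lies on the plus strand of chr9:2621834-2660053. It had 948, 1127 and 1096 counts in the libraries labelled H295R and 1287, 1338 and 1201 in those labelled H295R-PM-Ptc+. All 3 libraries labelled H295R-PM-Ptc+ lay above the others in CPM, with means of 52.0 ± 1.74 against 42.8 ± 2.70 (SD, n = 3). The log2 fold change of 0.28 ± 0.0769 (SE) did not pass the test by group (adjusted p = 0.0877). With the replicate number as a block VLDLR passed, at the same log2 fold change of 0.28 ± 0.0537 (SE, adjusted p = 0.00124), and with both replicate 1 libraries left out (adjusted p = 0.0276), and in no other of the 13 alternatives. The ratio of CPM was 1.27, 1.21 and 1.17 in the 3 pairs. An antisense gene, VLDLR-AS1, shares 738 of its 9339 exon bases on the opposite strand. The counting used the strand of the reads.

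Promoter sequences are shown for VLDLR, LIPA and NPC2, the genes called with the replicate block and not by group, 1 of them higher and 2 lower. RefSeq promoters (GRCh38.p14, 250 bases before to 50 after the start) were matched for 8 of the 9 genes, in 16 entries, and SCARB1 was not matched. Capitals mark the GC box GGGCGG, which general promoter factors such as Sp1 bind, and the CCAAT box CCAAT, each on either strand. GC boxes occur in 45.0% and CCAAT boxes in 34.6% of the 35116 promoters of the same table. The VLDLR window (chr9:2621537-2621836, plus strand, 79.0% G and C) held 2 overlapping GC boxes, 59 and 55 bases before the start, and no CCAAT box.
VLDLR: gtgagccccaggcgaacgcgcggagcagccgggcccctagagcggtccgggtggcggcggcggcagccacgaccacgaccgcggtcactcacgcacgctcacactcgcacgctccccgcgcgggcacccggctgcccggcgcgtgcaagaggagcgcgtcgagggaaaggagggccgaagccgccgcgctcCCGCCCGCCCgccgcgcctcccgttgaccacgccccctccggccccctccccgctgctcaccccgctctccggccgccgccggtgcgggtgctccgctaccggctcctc
The LIPA window (chr10:89251726-89252025, minus strand, 67.7% G and C), 1 of the 3 listed for this gene, held 2 GC boxes and, between them, 1 CCAAT box 106 bases before the start. The NPC2 window (chr14:74493463-74493762, minus strand, 69.7% G and C), 1 of 2 listed, held 7 GC boxes and 2 CCAAT boxes.
LIPA: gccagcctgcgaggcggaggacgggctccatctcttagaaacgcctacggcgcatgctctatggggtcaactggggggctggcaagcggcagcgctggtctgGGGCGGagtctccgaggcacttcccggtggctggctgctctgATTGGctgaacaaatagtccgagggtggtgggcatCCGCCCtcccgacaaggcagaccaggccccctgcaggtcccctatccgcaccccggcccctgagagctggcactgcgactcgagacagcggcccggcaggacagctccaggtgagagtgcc
NPC2: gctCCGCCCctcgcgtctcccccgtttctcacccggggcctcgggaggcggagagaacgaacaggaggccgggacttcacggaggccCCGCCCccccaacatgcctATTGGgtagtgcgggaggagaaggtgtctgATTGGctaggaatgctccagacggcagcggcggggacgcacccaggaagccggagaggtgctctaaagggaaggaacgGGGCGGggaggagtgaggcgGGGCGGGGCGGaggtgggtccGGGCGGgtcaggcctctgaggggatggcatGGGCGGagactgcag
None of the 16 windows held the sterol regulatory element letters TCACNCCAC, found in 1.13% of all promoters, the steroidogenic factor SF-1 site CAAGGTCA (1.28%), the lysosomal gene motif TCACGTGA (0.980%) or the E box CACGTG (7.26%). These matches describe letters in a window of 300 bases and nothing about the binding of a factor.

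LIPA, the lipase that cleaves cholesteryl ester in the lysosome, had the opposite sign to the receptors. The gene lies on the minus strand of chr10:89213569-89414557. It had 1581, 1501 and 1497 counts in the libraries labelled H295R and 1376, 1223 and 1197 in those labelled H295R-PM-Ptc+. The groups did not overlap, with 61.9 ± 3.74 CPM against 51.6 ± 2.32 CPM (SD, n = 3). The log2 fold change of -0.26 ± 0.0772 (SE) did not pass the test by group (adjusted p = 0.107). With the replicate block it was -0.26 ± 0.0504 (SE, adjusted p = 0.00131), and it also passed with both replicate 1 libraries left out (adjusted p = 0.0297). The ratio of CPM was 0.814, 0.832 and 0.854 in the 3 pairs.

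NPC2, the soluble lysosomal protein that hands free cholesterol to NPC1, lies on the minus strand of chr14:74476192-74494177. It had 2238, 2027 and 1833 counts in the libraries labelled H295R and 2029, 1622 and 1627 in those labelled H295R-PM-Ptc+. The groups overlapped, since replicate 1 was the highest library of each, at 82.5 ± 10.04 CPM against 71.6 ± 7.16 CPM (SD, n = 3). The log2 fold change of -0.20 ± 0.109 (SE) did not pass by group (adjusted p = 0.392) and passed with the block (adjusted p = 0.0102). It was -0.11 without H295R replicate 1 (adjusted p = 0.597), and with both replicate 1 libraries left out it did not pass (-0.18, adjusted p = 0.0965). Every pair had the same direction, with ratios of 0.847, 0.818 and 0.948.

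NPC1, the membrane protein that exports cholesterol from the late endosome, lies on the minus strand of chr18:23506184-23586898. It had 1815, 2409 and 2383 counts in the libraries labelled H295R and 2080, 2388 and 2237 in those labelled H295R-PM-Ptc+. The means were 89.1 ± 11.4 CPM and 91.4 ± 8.65 CPM (SD, n = 3), and replicate 1 was the lowest library of both groups. The log2 fold change was 0.04 ± 0.112 (SE, adjusted p = 0.919), with a 95% interval of -0.22 to 0.29, and 0.04 ± 0.0466 (SE, adjusted p = 0.594) with the block. As folds, the interval by group ran from 0.860 to 1.22. The sign of this value turned in 3 of the fits that left out 1 library.

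STARD3, which anchors late endosomes to the endoplasmic reticulum and binds sterol, lies on the plus strand of chr17:39637065-39663484. It had 1583, 1297 and 1369 counts in the libraries labelled H295R and 1671, 1395 and 1370 in those labelled H295R-PM-Ptc+. As for NPC2, replicate 1 was the highest library of each group, and the groups overlapped, at 57.6 ± 7.83 CPM and 60.2 ± 4.72 CPM (SD, n = 3). In the fit by group STARD3 had a log2 fold change of 0.07 ± 0.108 (SE, adjusted p = 0.829), with a 95% interval of -0.18 to 0.31. Its sign turned in 2 of the fits that left out 1 library.

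**Figure D2:**
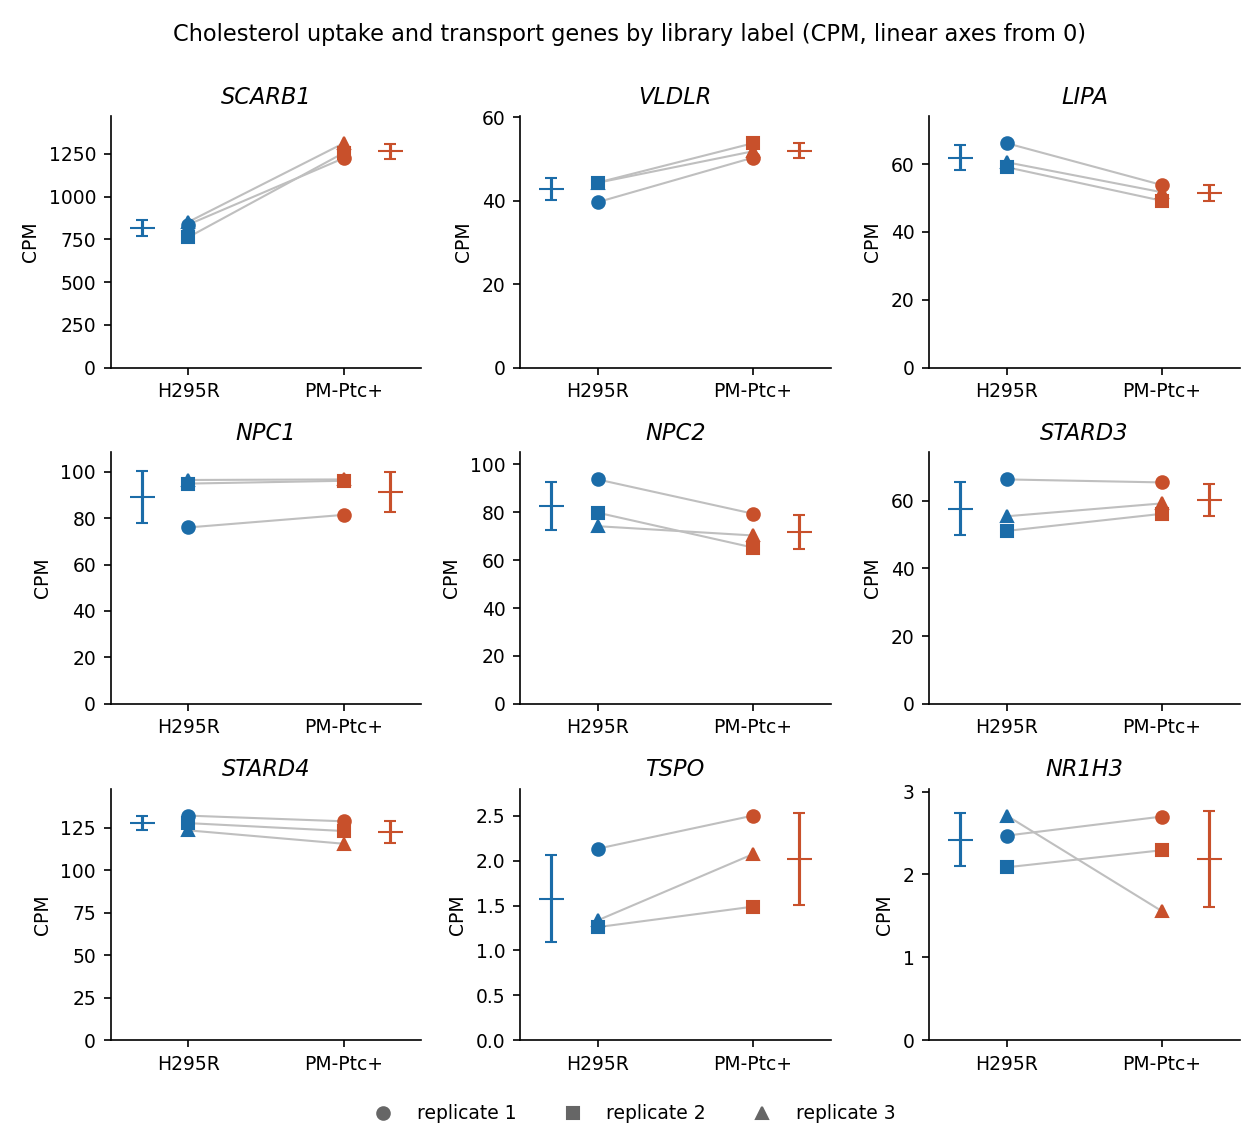
CPM of each gene (linear axes from 0) in the libraries labelled H295R (blue) and H295R-PM-Ptc+ (labelled PM-Ptc+, orange). Symbols give the replicate number, grey lines join libraries of the same number, and the bars beside them give mean ± SD (n = 3). SCARB1 (817 against 1263 CPM) and VLDLR (42.8 against 52.0) are higher and LIPA (61.9 against 51.6) lower in every library labelled H295R-PM-Ptc+, while replicate 1 stands apart in both groups for NPC1.

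STARD4, a soluble carrier of cholesterol between membranes, lies on the minus strand of chr5:111496033-111512590. It had 3155, 3242 and 3050 counts in the libraries labelled H295R and 3290, 3058 and 2674 in those labelled H295R-PM-Ptc+. The groups overlapped, at 128 ± 4.33 CPM and 122 ± 6.62 CPM (SD, n = 3). STARD4 had a log2 fold change of -0.06 ± 0.0747 (SE, adjusted p = 0.757), with a 95% interval of -0.23 to 0.11. As folds, the interval ran from 0.853 to 1.08, so that changes of the size seen for SCARB1 lie outside it.

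TSPO, the translocator protein of the outer mitochondrial membrane, was sparse in these libraries. The gene lies on the plus strand of chr22:43151514-43163242, and its exons share no base with another gene of the deposited annotation. It had 51, 32 and 33 counts in the libraries labelled H295R and 64, 37 and 48 in those labelled H295R-PM-Ptc+. All 3 pairs had the same direction, with ratios of 1.17, 1.18 and 1.55, but the groups overlapped, at 1.58 ± 0.485 CPM and 2.02 ± 0.510 CPM (SD, n = 3). The log2 fold change of 0.36 ± 0.273 (SE) did not pass the test (adjusted p = 0.560, and 0.212 with the block). Its 95% interval ran from -0.25 to 0.98, which includes both 0 and the change of SCARB1. Leaving out 1 library moved the value to between 0.17 (H295R-PM-Ptc+ replicate 1 left out) and 0.64 (H295R replicate 1 left out).

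NR1H3, the oxysterol-sensing nuclear receptor LXR-alpha, lies on the plus strand of chr11:47248300-47269032 and was the lowest of the 9 per length. It had 59, 53 and 67 counts in the libraries labelled H295R and 69, 57 and 36 in those labelled H295R-PM-Ptc+. The groups overlapped, at 2.42 ± 0.315 CPM and 2.18 ± 0.580 CPM (SD, n = 3), and the pairs had ratios of 1.09, 1.10 and 0.574. For NR1H3 the log2 fold change was -0.14 ± 0.224 (SE, adjusted p = 0.818), with a 95% interval of -0.65 to 0.36. Without H295R-PM-Ptc+ replicate 3, in which NR1H3 had its fewest counts, the value was 0.04.

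**Figure D3:**
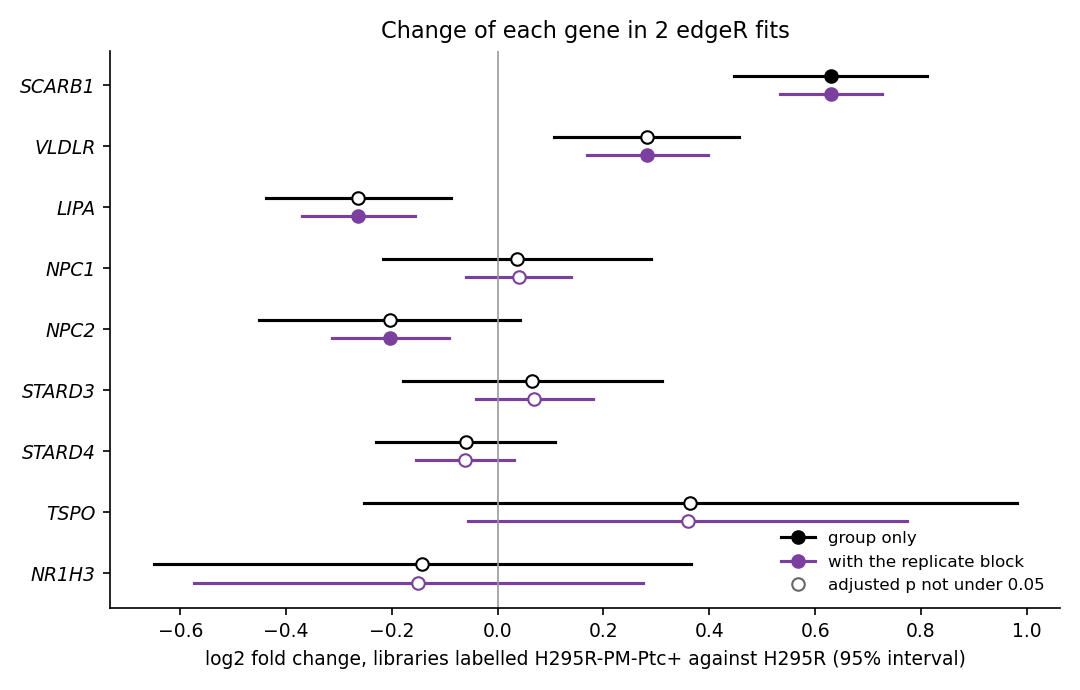
Log2 fold change of each gene between the labelled groups with its 95% interval, from edgeR by group (black) and with the replicate number as a block (purple), where filled symbols have an adjusted p under 0.05. The estimates hardly move between the fits, and the shorter intervals of the blocked fit bring VLDLR (0.28), LIPA (-0.26) and NPC2 (-0.20) past the threshold beside SCARB1 (0.63).

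The genes of this route were set against 65 others of cholesterol uptake, lysosomal handling, sterol carriers, mitochondrial import, regulation and efflux, of which 55 were tested. By group 3 of 55 were called, 2 higher and 1 lower (5.45%, where 3.73% of all tested genes were called). With the block 17 of 55 were called, 11 higher and 6 lower (30.9%, where 22.5% of all tested genes were called). The median log2 fold change of the 55 was 0.06, and 36 had a positive sign. The 3 genes called by group were the surface receptors CD36 and LRP8 (of 9 receptors tested) and the mitochondrial gene ATAD3A (of 5). The other roles held 10 lysosomal genes, 20 carriers, 8 regulators and 3 efflux genes tested, and no difference between roles was tested.

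CD36, a class B scavenger receptor like SCARB1, had 1780, 1983 and 1930 counts in the libraries labelled H295R and 3935, 3169 and 2920 in those labelled H295R-PM-Ptc+. It was higher in the latter, with a log2 fold change of 0.82 ± 0.0930 (SE, adjusted p = 0.00188), and was called in 13 of 13 alternatives. LRP8, a receptor of the same family as VLDLR, was lower, at 14.1 ± 0.828 CPM against 20.9 ± 0.728 CPM (SD, n = 3) and a log2 fold change of -0.57 ± 0.0882 (SE, adjusted p = 0.00985). The call of LRP8 was lost without H295R replicate 3 (adjusted p = 0.0544) and without H295R-PM-Ptc+ replicate 2 (0.0610).

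The ratio of SCARB1 to NPC1 counts within each library, which depends on no scaling between libraries, was 11.0, 8.04 and 8.83 in those labelled H295R. In those labelled H295R-PM-Ptc+ it was 15.04, 13.06 and 13.57. The ratio separated the groups without overlap, by a fold of 1.51. An exact two-sided permutation test gave p = 0.1, the smallest that 3 against 3 libraries allow (Benjamini-Hochberg adjusted p = 0.2 over the 8 ratios computed), and the ratios were chosen after the values were seen. The ratio of SCARB1 to VLDLR also separated the groups (fold 1.27, exact p = 0.1). The groups overlapped in the ratios of LIPA to NPC1 (exact p = 0.3), NPC2 to NPC1 (exact p = 0.5), CD36 to SCARB1 (exact p = 0.3) and STARD4 to STAR (exact p = 0.2). This test does not use the pairing of the replicates. Within the 3 pairs the ratios of LIPA to NPC1, NPC2 to NPC1 and STARD4 to STAR each had their lower value under the H295R-PM-Ptc+ label in 3 of 3, while that of CD36 to SCARB1 was mixed.

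ATAD3A, an inner mitochondrial membrane protein, was higher at 47.8 ± 0.445 CPM against 37.3 ± 2.78 CPM (SD, n = 3), with a log2 fold change of 0.36 ± 0.0780 (SE, adjusted p = 0.0412). It has close paralogues that may share its reads, and its call was lost in each of the fits that left out 1 library, with adjusted p-values up to 0.166. STAR, the carrier that delivers cholesterol to the inner mitochondrial membrane for steroid synthesis, had 9070, 6318 and 6579 counts in the libraries labelled H295R and 13177, 8174 and 8007 in those labelled H295R-PM-Ptc+. Replicate 1 was the highest library of each group, and the log2 fold change of 0.41 ± 0.202 (SE) did not pass by group (adjusted p = 0.346). Within the pairs the ratios of STAR were 1.36, 1.32 and 1.30, and the blocked fit called it (adjusted p = 3.91e-06). Leaving out 1 library moved the log2 fold change of STAR to between 0.17 (H295R-PM-Ptc+ replicate 1 left out) and 0.62 (H295R replicate 1 left out).

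Of the regulators, SREBF2, which drives the transcription of sterol uptake and synthesis genes, had 219 ± 27.4 CPM against 209 ± 11.8 CPM (SD, n = 3; log2 fold change -0.07, adjusted p = 0.809). NR1H2, the other liver X receptor, had 106 ± 18.4 CPM against 113 ± 13.9 CPM (log2 fold change 0.09, adjusted p = 0.797). Neither was called with the block. The blocked fit called 2 of the 8 regulators, INSIG1 and RXRA, a share near the 22.5% of all tested genes that it called. Both were lower (RXRA, the partner of the liver X receptors, log2 fold change -0.20 in both fits, adjusted p = 0.3002 by group and 0.0203 with the block). ABCA1, a cholesterol exporter and a known LXR target, was sparse, at 5.78 ± 0.194 CPM against 7.40 ± 1.38 CPM (SD, n = 3). Its log2 fold change of 0.35 did not pass by group (adjusted p = 0.276) and passed with the block (adjusted p = 0.0447). It was 0.20 without H295R-PM-Ptc+ replicate 3 (adjusted p = 0.680) and 0.45 with both replicate 1 libraries left out (adjusted p = 0.0574). INSIG1, an endoplasmic reticulum protein that holds back the SREBP pathway when sterol is plentiful, had 420 ± 103 CPM against 292 ± 57.8 CPM (SD, n = 3). It differed by -0.52 on the log2 scale (adjusted p = 0.178 by group and 6.01e-07 with the block).

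The lysosomal genes differed among themselves in the blocked fit. Beside LIPA and NPC2, which were lower, TMEM97, which binds NPC1, was lower (log2 fold change -0.22, adjusted p = 0.00110), while LAMP1, a structural protein of the lysosomal membrane, was higher (0.18, adjusted p = 0.00647). SMPD1 and PLA2G15, hydrolases of lysosomal lipids, were also higher with the block, with log2 fold changes by group of 0.21 and 0.25. None of the lysosomal genes passed the test by group.

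**Figure D4:**
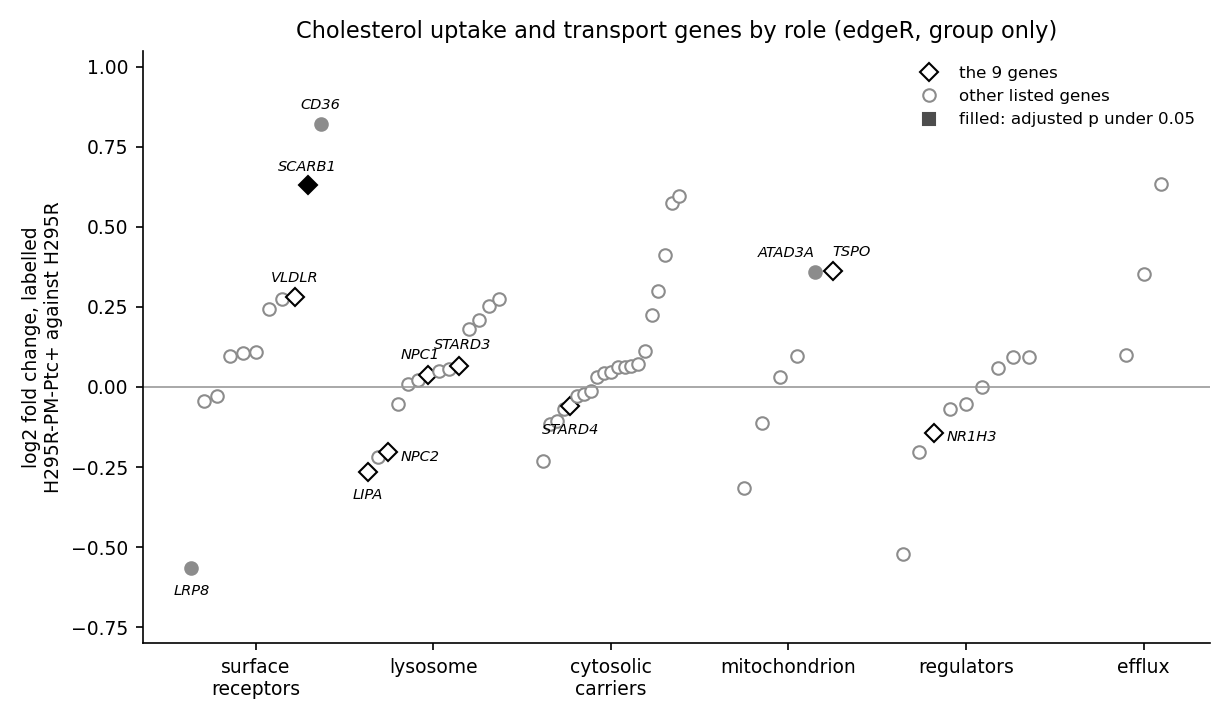
Log2 fold change by group of the 9 genes (diamonds, named) and of the 55 other tested genes of the pathway (circles), sorted within each role, with filled symbols for an adjusted p under 0.05. Calls lie among the surface receptors, where CD36 (0.82) and SCARB1 (0.63) are higher and LRP8 (-0.57) is lower, and at ATAD3A (0.36).

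The tested genes whose log2 CPM followed that of SCARB1 most closely over the 6 libraries were CADPS (Pearson r = 0.998), ISLR (0.995) and VCX (0.995). Since the libraries fall into 2 groups that differ in SCARB1, these values mostly describe that step, and they carry no p-value. The log2 fold changes were 0.97 for CADPS, which primes dense-core vesicles for release (adjusted p = 8.75e-04), 1.44 for ISLR (adjusted p = 0.00430) and 2.23 for VCX (adjusted p = 3.25e-04). VCX belongs to a family of near-identical genes on the X chromosome, so its counts may be shared with them.

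Markers of other cell types were low except for the chromaffin gene CHGB, and some of the lists differed in level between the groups. Of 5 markers each, the summed level of the endothelial list was 0.197 to 0.335 CPM in the libraries labelled H295R and 0.509 to 0.648 CPM in those labelled H295R-PM-Ptc+. That of the leukocyte list was 0.809 to 1.34 CPM against 1.68 to 2.00 CPM, with PTPRC, the pan-leukocyte marker, at 0 in every library. CD68 was also at 0, but shares 1789 of its 2189 exon bases with another gene on its strand, which makes that value uninformative. The fibroblast list summed to 8.03 to 9.29 CPM and 9.23 to 11.2 CPM, with LUM at 0. The chromaffin list, with DBH and PNMT at 0, summed to 65.2 to 76.7 CPM and 51.5 to 61.2 CPM. Nearly all of it was CHGB (71.4 ± 6.08 CPM against 54.3 ± 4.77 CPM). CHGA, the other tested gene of that list, went the other way, at 0.783 ± 0.0281 CPM against 1.16 ± 0.317 CPM. Neither was called by group, and with the block CHGB was called lower (adjusted p = 7.38e-05) and CHGA was not called (0.151). The cortical list summed to 880 to 1160 CPM and 958 to 1216 CPM. By group 1 of its 8 genes, CYP21A2, was called (higher, adjusted p = 0.00670), where 3.73% of all tested genes were called. With the block, which called 22.5% of all, CYP21A2 (adjusted p = 1.22e-06) and STAR (3.91e-06) were called higher and CYP11A1 lower (0.00100). INHA was lower in every library labelled H295R-PM-Ptc+ and was called in neither fit (adjusted p = 0.272 by group and 0.0760 with the block). The CYP21A2 entry spans chr6:31850614-32118110 with 16093 exon bases, so its counts may not be of this gene alone. The part of these levels in the changes of SCARB1, VLDLR, LIPA and NPC2 was not tested.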

How the data were processed

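RNA was sequenced from 3 libraries labelled H295R and 3 labelled H295R-PM-Ptc+. Per the labels and the study's methods, the authors aligned paired reads from stranded libraries to hg38 with STAR 2.4.0a and assigned fragments to gene names with featureCounts of Subread (1.5.0-p3 in the labels) on an Ensembl annotation, with primary alignments kept where a read mapped to several places. The values the authors deposited are raw counts per gene, with no normalization. 1 row without a gene name, with 0 counts, was left out.

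Counts were scaled with TMM factors, filtered with filterByExpr and compared in R 4.3.3 by edgeR 4.0.16 (glmQLFit and glmQLFTest, group as the only term, two-sided, Benjamini-Hochberg adjustment over 16710 genes). The study used DESeq2, which was run as an alternative (1.42.0), with limma-voom (3.58.1), relative log expression factors, no filter, at least 10 counts in every library, each library left out, and both replicate 1 libraries left out. SEs come from the F statistic, intervals are at 95%, and log2 CPM for correlations used a prior count of 0.5. The script was tested on simulated data. CPM per kb uses the exon length given in the table. Precision rests on counting depth and on 3 libraries a group, and of the 9 genes TSPO and NR1H3 had the fewest counts.

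Same-numbered replicates carry the same code in the labels. Their deviations from the group means correlated at 0.465, 0.280 and 0.201 over genes for replicates 1, 2 and 3, against -0.325 to 0.134 for different numbers. Deviations from a mean of 3 libraries offset each other, so these values are not independent. Between replicates 2 and 3 the values for different numbers were 0.134 and 0.0985, so that pairing is weaker there. The replicate number was entered as a block in another fit. The 9 genes and all lists were chosen with earlier results of these data known. The rule for naming took the 9 genes, every other listed gene with an adjusted p under 0.05, STAR, SREBF2, NR1H2, ABCA1 and an item that is not reported here, whatever their values, the 3 genes most alike the member with the smallest p, and PTCH1. INSIG1, RXRA, the lysosomal genes and the marker genes named beside these were chosen after their values were seen. In the pathway list TSPOAP1 was matched by its older symbol BZRAP1. Figures were drawn with Python 3.11.15, pandas 2.3.3 and matplotlib 3.10.9.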

Additional observations from a re-analysis of the deposited data

How the results depend on the processing

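The number of genes called, 624 by group, was 1111 with no filter on low counts, 3758 with the replicate block, 2013 with both replicate 1 libraries left out, and 219 to 810 with 1 library left out. DESeq2 called 911 genes, limma-voom 608, relative log expression factors 619, and the minimum of 10 counts in every library 479. Of the 9 cholesterol genes, 1 was called by group, 4 with the replicate block and 3 with both replicate 1 libraries left out, and 1 in each of the other alternatives. Of the other pathway genes, 3 were called by group, 6 with no filter, 17 with the block, 9 with both replicate 1 libraries left out, and 1 to 3 with 1 library left out. Beside the genes given above, the block left the calls of SCARB1, CD36, LRP8, ATAD3A and PTCH1 as they were. The sign of the log2 fold change turned for genes near 0 when 1 library was left out, which gave -0.0675 to 0.11 for NPC1, -0.0145 to 0.18 for STARD3, -0.33 to 0.0355 for NR1H3, -0.16 to 0.0212 for SREBF2 and -0.0159 to 0.23 for NR1H2. With both replicate 1 libraries left out SREBF2 stood at 0.0553. The cause of these differences was not tested. Of the 9 genes TSPO and NR1H3 had the fewest counts, 32 to 69 in each library, and the widest intervals.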
